A study of Mus musculus with 15 samples.

Results

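The interferon-stimulated genes described here are 39 genes that type I interferons induce in mouse cells, taken by symbol from the deposited count tables of a cell culture study of astrocytes. Of the 39, 37 had counts among the 25748 symbols of the tables, and Mx1 and Mx2 are not analysed here. A filter on low counts kept 36 of the 37 among 15362 genes tested, and Oas3, with a normalised read count of 0.0534 to 0.536 CPM (counts scaled to library size) in the 15 libraries, was left without a test. RNA with poly(A) tails was sequenced from mouse brain astrocytes in primary culture, in 3 groups of 5 libraries. Cells of the Rg1 plus LPS group were given ginsenoside Rg1, a saponin of ginseng, at 80 µM for 12 h and then 1 µg/mL lipopolysaccharide (LPS), a bacterial cell wall component that activates Toll-like receptor 4, for 6 to 8 h. The LPS group, which the submitters label SCI, received the same dose of LPS for 6 to 8 h with no Rg1, and for the control group the labels name no agent. No group here had Rg1 without LPS, and the sources used here do not state the strain or age of the mice or the number of cultures. The p-values therefore measure the spread between these libraries, which may be technical.

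Type I interferons bind a receptor made of IFNAR1 and IFNAR2, whose kinases JAK1 and TYK2 phosphorylate the transcription factor STAT2. STAT2 joins IRF9 and binds the interferon-stimulated response element (ISRE) in front of target genes, whose products sense foreign RNA, block its translation or degrade it. LPS can start the same pathway indirectly, because Toll-like receptor 4 signals through the adaptor TRIF to IRF3, which switches on the interferon gene Ifnb1.

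The ISRE is the DNA element through which interferon acts on many of these genes, so promoter windows of RefSeq on GRCm38.p6 were searched, each running from 250 bases before to 50 bases after an annotated start. The motif was GAAANNGAAA on either strand, where N is any base and matches may overlap. Of the 37 genes, 28 had a window, and 14 of the 28 (50%) held a match in at least 1 window, beside 3.99% of all 27025 genes with windows. The share was 40.0%, 4 of 10, among genes higher in LPS cells than in control cells and 52.9%, 9 of 17, among tested genes that did not differ between these groups. The interferon gamma type element TTCNNNGAA, searched the same way, had a match in 8 of 28 (28.6%), beside 9.55% of all genes. A match is a description of letters and not a binding site. The windows of the 4 genes higher in LPS cells that held an ISRE match are given in order of their fold change, written 5′ to 3′ on the gene's strand with the matched bases in capitals. Rsad2 lies at chr12:26456403-26456702 on the minus strand, Trim21 at chr7:102565433-102565732 on the minus strand, Ifit1 at chr19:34640639-34640938 on the plus strand and Ifih1 at chr2:62646206-62646505 on the minus strand. The match began at position -120 in Rsad2, counted from 0 at the start, at positions 13 and 19 in Trim21, where the matches overlap, at positions -104 and -85 in Ifit1 and at position 32 in Ifih1, so that those of Trim21 and Ifih1 lay inside the transcribed part.
Rsad2: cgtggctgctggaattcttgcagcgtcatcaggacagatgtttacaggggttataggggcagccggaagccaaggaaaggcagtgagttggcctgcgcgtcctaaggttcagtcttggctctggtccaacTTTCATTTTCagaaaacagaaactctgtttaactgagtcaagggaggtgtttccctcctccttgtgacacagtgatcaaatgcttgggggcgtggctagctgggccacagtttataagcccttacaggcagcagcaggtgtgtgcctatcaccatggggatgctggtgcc
Trim21: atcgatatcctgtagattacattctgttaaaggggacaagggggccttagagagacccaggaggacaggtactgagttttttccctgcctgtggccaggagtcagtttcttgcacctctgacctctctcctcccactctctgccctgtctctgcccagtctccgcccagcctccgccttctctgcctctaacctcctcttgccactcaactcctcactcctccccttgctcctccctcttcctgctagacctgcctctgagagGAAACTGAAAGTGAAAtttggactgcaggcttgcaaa
Ifit1: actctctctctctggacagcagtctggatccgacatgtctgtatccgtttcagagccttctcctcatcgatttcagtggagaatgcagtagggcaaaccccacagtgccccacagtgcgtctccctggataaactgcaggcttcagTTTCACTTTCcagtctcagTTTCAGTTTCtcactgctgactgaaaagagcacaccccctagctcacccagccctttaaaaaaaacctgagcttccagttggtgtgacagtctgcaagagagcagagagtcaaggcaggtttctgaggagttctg
Ifih1: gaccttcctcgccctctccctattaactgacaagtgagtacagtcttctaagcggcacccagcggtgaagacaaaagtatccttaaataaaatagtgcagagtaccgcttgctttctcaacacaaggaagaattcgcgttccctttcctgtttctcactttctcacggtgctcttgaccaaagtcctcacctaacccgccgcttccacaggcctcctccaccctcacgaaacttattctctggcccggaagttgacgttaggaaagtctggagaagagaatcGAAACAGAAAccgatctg

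A subset of the group was higher with LPS than without it. Of 36 genes tested, 14 were higher in LPS cells than in control cells and 0 were lower, by edgeR's quasi-likelihood test at a Benjamini-Hochberg adjusted p under 0.05. Across all 15362 genes, 13.8% were higher and 9.82% were lower in the same comparison. The 14 were Adar, Cmpk2, Dtx3l, Ifih1, Ifit1, Ifit2, Oasl1, Parp14, Parp9, Rigi, Rsad2, Rtp4, Samd9l and Trim21, of which 8 changed at least 2-fold. At an unadjusted p under 0.05 the test gave 19 members, all of them higher in LPS cells. Shares of all genes at that threshold, or with a 2-fold change, are not given here for any of the 3 comparisons. The median log2 fold change was 0.47 over the members and -0.003 over all genes tested, and 35 of 36 members had a positive value. The 5 LPS libraries all lay above the 5 control libraries for 14 members, beside 12.8% of all genes. They all lay below them for 0 members, beside 7.64%. The members without overlap include Eif2ak2, which did not pass the test, and leave out Adar, which passed. In these bulk samples, a gain or loss of cells of a type and a change of RNA per cell cannot be told apart. Leaving out LPS replicates 2 and 3, which had the highest microglia and astrocyte marker levels of their group, left 10 members higher and a median of 0.30.

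After Rg1 the group stood lower. In Rg1 plus LPS cells 0 members were higher and 20 of 36 were lower than in LPS cells, while 22.2% of all genes were higher and 23.2% were lower. The 20 were Adar, Cmpk2, Dtx3l, Eif2ak2, Herc6, Ifi44, Ifih1, Ifit1, Ifit2, Oasl1, Parp14, Parp9, Rigi, Rsad2, Rtp4, Samd9l, Trim21, Trim25, Trim30a and Zbp1. Both comparisons use the same LPS libraries, so their counts are not independent of each other. At least a 2-fold difference was found for 11 of the 20, and 22 members had an unadjusted p under 0.05, all with lower levels in Rg1 plus LPS cells. The median log2 fold change was -0.70, beside 0.028 over all genes. All 5 Rg1 plus LPS libraries lay below all 5 LPS libraries for 15 members, beside 15.1% of all genes, and above them for 0 members, beside 12.4%. Without Rg1 plus LPS replicates 1 and 4, a choice made after seeing the data, 18 members were lower and the median was -0.38. When libraries were scaled to their totals alone in place of TMM, the median of all genes moved to 0.14, 65.0% of all called genes were higher in Rg1 plus LPS cells in place of 48.9%, and Ifi27 passed the test as higher.

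Against control cells, Rg1 plus LPS cells differed at few members. Here 0 members were higher and 4 were lower, namely Herc6, Ifih1, Rigi and Trim25, while 18.8% of all genes were higher and 18.1% were lower. An unadjusted p under 0.05 was found for 6 members, and the median log2 fold change was -0.15, beside 0.011 over all genes. All Rg1 plus LPS libraries lay below all control libraries for 1 member, Trim25, beside 13% of all genes, and above them for 0 members, beside 13.2%. Without Rg1 plus LPS replicates 1 and 4 only Trim25 was lower, Isg20 and Stat2 were higher, and the median turned to 0.15. Over all 3 comparisons 16 members passed no test, and the share of all genes that passed none is not given here. The 16 were Bst2, Dhx58, Ifi27, Ifi35, Ifit3, Ifit3b, Ifitm3, Isg15, Isg20, Lgals3bp, Oas1a, Oas2, Oasl2, Stat2, Usp18 and Xaf1.

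**Figure D1:**
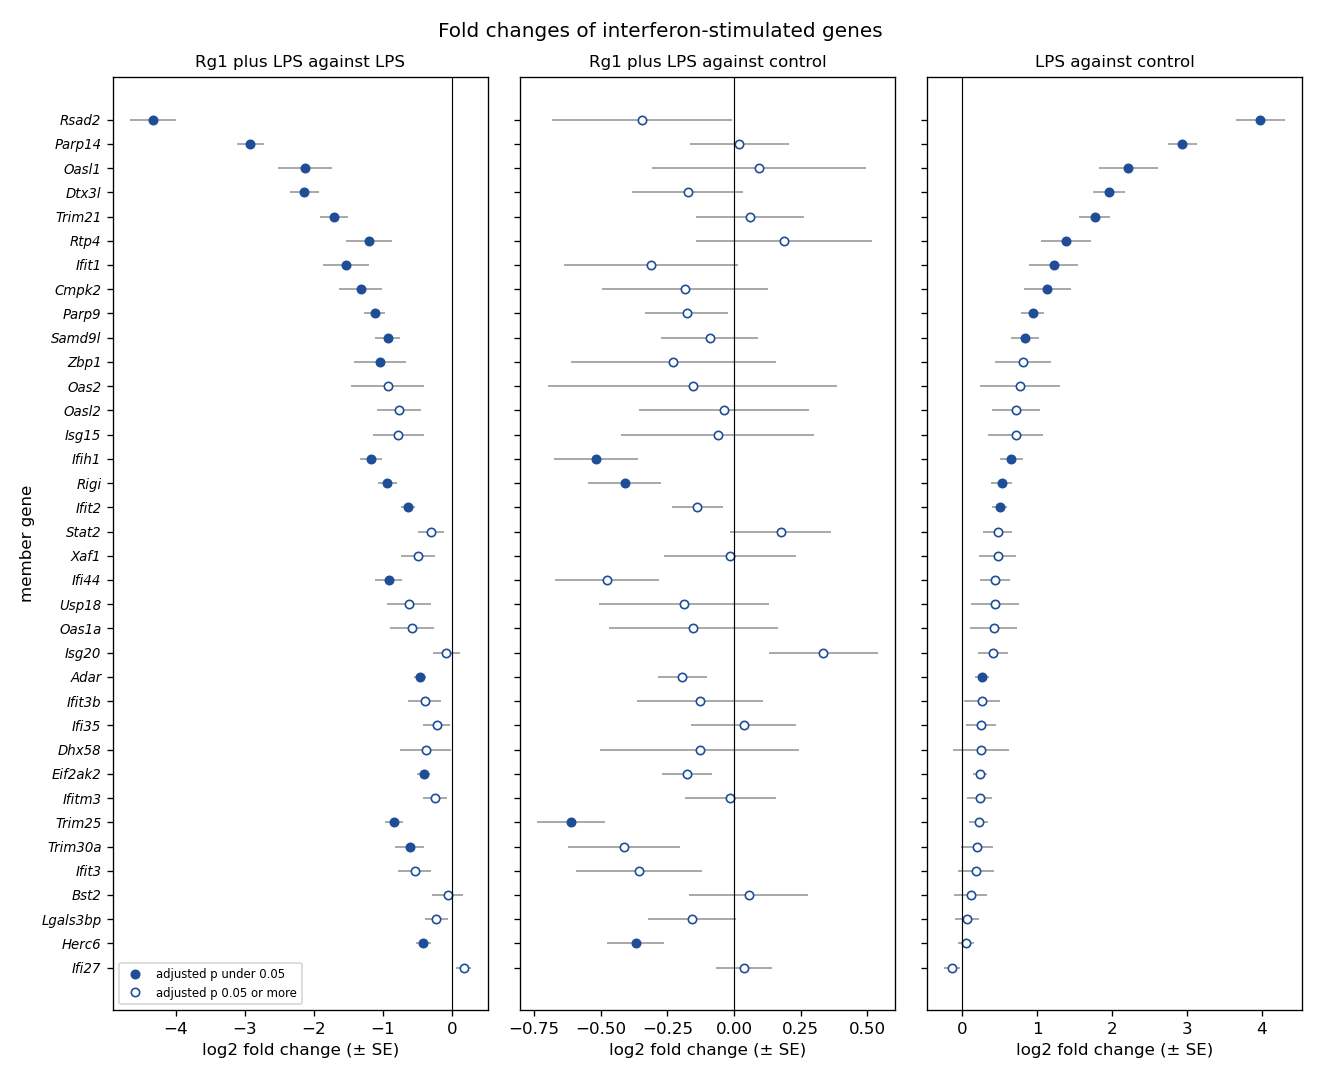
Log2 fold change of each of the 36 tested members (points, with SE bars) in the 3 comparisons, in order of the LPS against control value, filled where the adjusted p of edgeR's quasi-likelihood test was under 0.05; the axis of the middle panel is narrower than the others. Filled points lie right of 0 for 14 members in LPS against control and left of 0 for 20 members in Rg1 plus LPS against LPS.

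The plot of fold changes orders the members by their response to LPS, and the heat map of every library shows what lies under each fold change. Rsad2, Parp14, Oasl1, Dtx3l and Trim21, at the top, were higher in every LPS library than in any other library, by a narrow margin for Oasl1. Further down the order the groups overlap for many members, although for Trim25, Eif2ak2 and Adar all Rg1 plus LPS libraries lie below all LPS libraries.

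**Figure D2:**
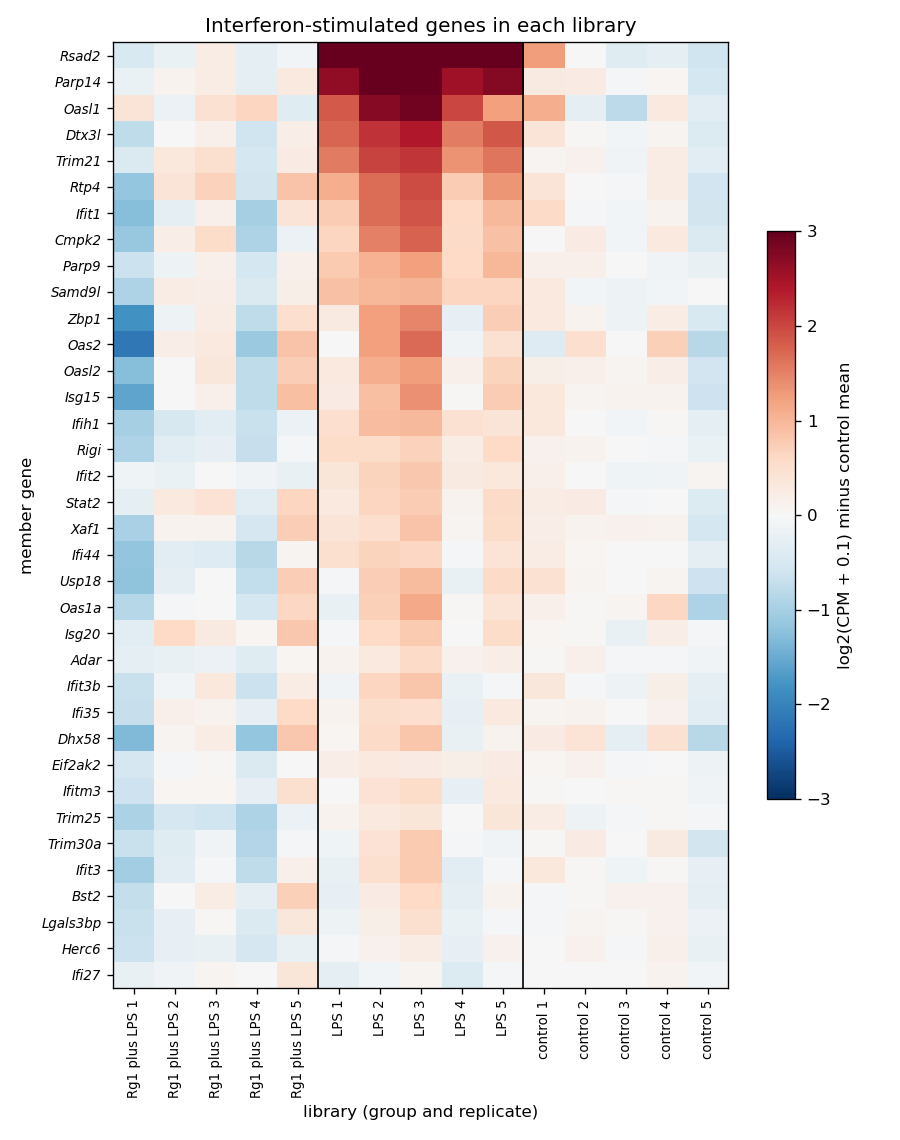
Heat map of the 36 tested members in the 15 libraries, coloured by log2(CPM + 0.1) minus the mean of the 5 control libraries, with the colour scale ending at -3 and 3 (Rsad2 lies beyond it in all LPS libraries and Parp14 in LPS replicates 2 and 3). Rg1 plus LPS libraries stand left, LPS libraries in the middle and control libraries right.

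Among enzymes that act on nucleotides and RNA, Rsad2 showed the widest range of the whole group. Rsad2 encodes viperin, a radical SAM enzyme that makes a chain-terminating nucleotide against viral polymerases. It had 1.3, 1.59, 2.15, 1.49 and 1.72 CPM in Rg1 plus LPS libraries 1 to 5, against 26.9, 44, 43.8, 23.5 and 27.9 CPM in LPS libraries and 4.52, 1.82, 1.42, 1.49 and 1.18 CPM in control libraries. Every LPS library was far above all others, and among control libraries replicate 1 stood above the rest. Rsad2 was 20.1-fold lower in Rg1 plus LPS cells than in LPS cells (log2 fold change -4.33 ± 0.34 SE, adjusted p = 6.17e-08, edgeR) and 15.8-fold higher in LPS cells than in control cells (3.98 ± 0.33, adjusted p = 2.26e-07, edgeR). Cmpk2, a mitochondrial nucleotide kinase gene that lies next to Rsad2 on chromosome 12 in the opposite direction (chr12:26469204-26479837, plus strand, GRCm38), had 5.05, 12.9, 16.4, 5.83 and 9.99 CPM in Rg1 plus LPS libraries 1 to 5, against 17.6, 32.2, 38.6, 16.7 and 20.6 CPM in LPS libraries and 11.1, 13.3, 10.5, 13.9 and 8.24 CPM in control libraries. All LPS libraries lay above both other groups, with a smaller step than for Rsad2. The log2 fold change of Cmpk2 was -1.32 ± 0.31 in Rg1 plus LPS against LPS, whereas it was 1.14 ± 0.31 in LPS against control. The second call was lost when LPS replicates 2 and 3 were both left out (log2 fold change 0.68). Isg20, an RNA exonuclease, passed no test and averaged 6.88 ± 2.10 CPM in Rg1 plus LPS cells, 7.27 ± 1.84 CPM in LPS cells and 5.46 ± 0.576 CPM in control cells (SD, n = 5 each).

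**Figure D3:**
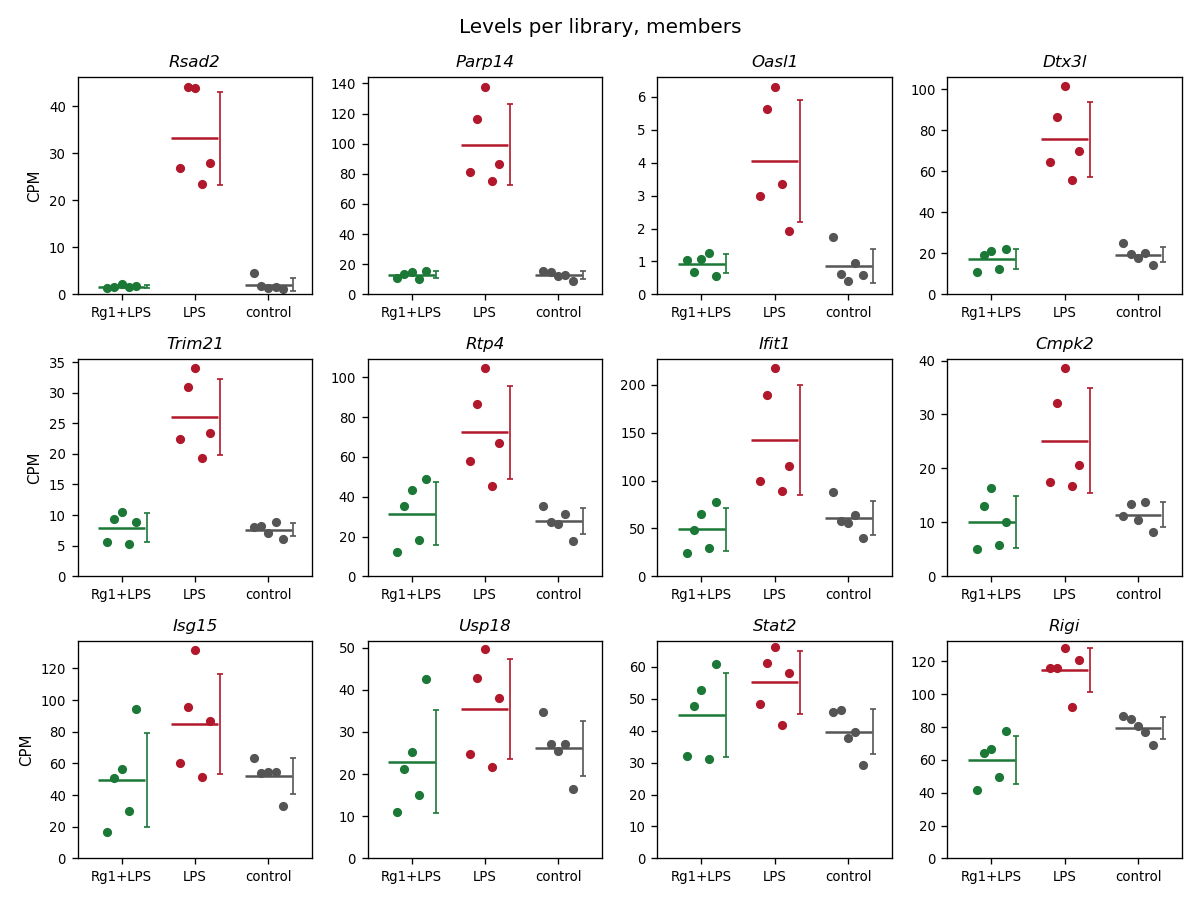
CPM of 12 members in each library (points), with the group mean (line) and SD (bar beside the points), on linear axes that start at 0. The 5 LPS libraries lie above all other libraries for Rsad2, Parp14, Oasl1, Dtx3l, Trim21, Ifit1, Cmpk2 and Rigi, while the groups overlap for Isg15, Usp18 and Stat2.

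All genes of the PARP and DTX3L set changed in both comparisons with LPS cells. Of all genes tested, 13.8% were higher in LPS against control and 23.2% were lower in Rg1 plus LPS against LPS. Parp14 and Parp9 encode ADP-ribosyltransferase family proteins, and Dtx3l encodes the ubiquitin ligase that binds PARP9. Their loci are neighbours on chromosome 16 of GRCm38, Parp14 at chr16:35832874-35871544 (minus strand), Dtx3l at chr16:35926511-35939151 (minus strand) and Parp9 at chr16:35938470-35972605 (plus strand). Parp14 had 11.1, 13.7, 14.8, 10.3 and 15.6 CPM in Rg1 plus LPS libraries 1 to 5, against 81.2, 116, 138, 74.9 and 86.5 CPM in LPS libraries and 15.2, 15.1, 12.4, 13.1 and 8.8 CPM in control libraries. The LPS libraries were all high, and the other groups overlapped one another. Its log2 fold change was -2.92 ± 0.19 in Rg1 plus LPS against LPS, whereas it was 2.94 ± 0.19 in LPS against control. Dtx3l had 11.1, 19.1, 21.1, 12.5 and 21.9 CPM in Rg1 plus LPS libraries 1 to 5, against 64.5, 86.6, 101, 55.7 and 69.7 CPM in LPS libraries and 24.9, 19.5, 17.9, 20.1 and 14.4 CPM in control libraries. Again only the LPS libraries were high, and the log2 fold changes were -2.14 ± 0.21 and 1.97 ± 0.21 in the same order of comparisons. Parp9 had 20.3, 28.7, 35.3, 21.9 and 35.3 CPM in Rg1 plus LPS libraries 1 to 5, against 55.3, 65.9, 74.5, 48.5 and 63.4 CPM in LPS libraries and 35.5, 35.5, 32.2, 29.6 and 27.2 CPM in control libraries. The LPS libraries did not overlap the others, and the log2 fold changes were -1.12 ± 0.16 in Rg1 plus LPS against LPS as well as 0.94 ± 0.16 in LPS against control. Dtx3l and Parp9 overlap at their starts on opposite strands, and since no source used here states the strand setting of the counting, reads of the shared stretch cannot be assigned to either.

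Of the TRIM ubiquitin ligases, all 3 were lower after Rg1 than with LPS alone, beside 23.2% of all genes. Trim21 was also higher in LPS cells than in control cells. Trim21, a cytosolic receptor for antibody Fc parts, had 5.6, 9.38, 10.6, 5.24 and 8.94 CPM in Rg1 plus LPS libraries 1 to 5, against 22.4, 30.9, 34, 19.4 and 23.4 CPM in LPS libraries and 8.01, 8.24, 7.03, 8.84 and 6.03 CPM in control libraries. LPS libraries were high without overlap, and Rg1 plus LPS libraries lay within or close to the control range. Its log2 fold change was -1.71 ± 0.20 in Rg1 plus LPS against LPS, whereas it was 1.77 ± 0.20 in LPS against control. Trim25, which ubiquitinates RIG-I, had 35.2 to 59.4 CPM (median 44.4) in Rg1 plus LPS cells, 66.7 to 86.6 CPM (median 83.3) in LPS cells and 60.9 to 78.5 CPM (median 65.7) in control cells. Rg1 plus LPS libraries were below both other groups for this gene. Trim25 fell by 0.83 ± 0.13 on the log2 scale in Rg1 plus LPS against LPS as well as by 0.61 ± 0.13 in Rg1 plus LPS against control (adjusted p = 0.00148, edgeR), and its value of 0.22 ± 0.13 in LPS against control did not pass. Trim30a averaged 12.3 ± 2.94 CPM in Rg1 plus LPS cells, 18.8 ± 5.72 CPM in LPS cells and 16.4 ± 3.43 CPM in control cells, and its call against LPS cells was lost without Rg1 plus LPS replicate 1 or 4, or LPS replicate 2 or 3.

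Sensors of RNA and other nucleic acids were lower after Rg1 than with LPS alone in 5 of 6 cases, beside 23.2% of all genes. Ifih1 encodes MDA5, a sensor of long double-stranded RNA, and had 8.91, 12.7, 14.2, 11.1 and 15.7 CPM in Rg1 plus LPS libraries 1 to 5, against 25.1, 34, 34.7, 24.3 and 23.2 CPM in LPS libraries and 22.2, 17.6, 16.8, 18.1 and 14.8 CPM in control libraries. The LPS libraries were the highest, and 4 of 5 Rg1 plus LPS libraries lay below every control library. Its log2 fold change was -1.17 ± 0.16 in Rg1 plus LPS against LPS, -0.52 ± 0.16 in Rg1 plus LPS against control and 0.66 ± 0.16 in LPS against control. The last call was lost when LPS replicates 2 and 3 were both left out (adjusted p = 0.0508, edgeR). Rigi encodes RIG-I, a sensor of RNA with a triphosphate end, and had 41.4, 64.1, 66.5, 49.4 and 77.8 CPM in Rg1 plus LPS libraries 1 to 5, against 116, 116, 128, 92.2 and 121 CPM in LPS libraries and 86.4, 84.6, 80.4, 76.8 and 69.3 CPM in control libraries. No LPS library overlapped the others, and 4 of 5 Rg1 plus LPS libraries lay under the control range. The log2 fold changes of Rigi were -0.94 ± 0.14, -0.41 ± 0.14 and 0.53 ± 0.14 in the same order of comparisons. For both genes the call in Rg1 plus LPS against control was lost without control replicate 1. That call was also lost without Rg1 plus LPS replicates 1 and 4 together. For Rigi it was lost as well without Rg1 plus LPS replicate 4, control replicate 2 or control replicate 3.

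Eif2ak2 and Adar moved by small amounts. Eif2ak2 encodes PKR, the kinase that stops translation on double-stranded RNA, and had 66.5, 90.8, 96.3, 69.96 and 95.1 CPM in Rg1 plus LPS libraries 1 to 5, against 109, 116, 112, 107 and 112 CPM in LPS libraries and 99, 104, 92.6, 93.1 and 84.6 CPM in control libraries. The Rg1 plus LPS libraries were below all LPS libraries, and replicates 1 and 4 were the lowest. All LPS libraries also lay above all control libraries. Eif2ak2 fell by 0.41 ± 0.095 on the log2 scale in Rg1 plus LPS against LPS, and its 0.23 ± 0.095 in LPS against control did not pass (adjusted p = 0.0867, edgeR). Adar, the adenosine deaminase that edits double-stranded RNA, had 57.5, 59.4, 61.6, 54.2 and 72.7 CPM in Rg1 plus LPS libraries 1 to 5, against 75.5, 85.3, 103, 76 and 80.6 CPM in LPS libraries and 71.8, 77.3, 67.6, 67.4 and 65.2 CPM in control libraries. Rg1 plus LPS libraries did not reach any LPS library, whereas LPS and control libraries overlapped. Its log2 fold change was -0.46 ± 0.092 in Rg1 plus LPS against LPS, whereas it was 0.27 ± 0.092 in LPS against control (adjusted p = 0.0435, edgeR), and the second call was lost under 15 of 25 other settings, among them leaving out any of LPS replicates 2, 3 and 5 or of control replicates 1, 3, 4 and 5. Zbp1, a sensor of Z-form nucleic acid, had 0.749, 2.61, 3.39, 1.65 and 4.15 CPM in Rg1 plus LPS libraries 1 to 5, against 3.52, 6.91, 8.08, 2.43 and 4.88 CPM in LPS libraries and 3.56, 3.09, 2.56, 3.4 and 2.07 CPM in control libraries. All groups overlapped, with Rg1 plus LPS replicate 1 lowest and LPS replicates 2 and 3 highest. Its log2 fold change of -1.04 ± 0.38 in Rg1 plus LPS against LPS passed (adjusted p = 0.0359, edgeR) but was lost without any of Rg1 plus LPS replicates 1, 2 and 4 or LPS replicates 2, 3 and 5, and 0.81 ± 0.38 in LPS against control did not pass. Dhx58, which encodes the regulator LGP2, averaged 6.87 ± 4.05 CPM in Rg1 plus LPS cells, 8.95 ± 2.73 CPM in LPS cells and 7.52 ± 2.53 CPM in control cells and passed no test.

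The IFIT proteins bind foreign RNA ends, and their genes form a cluster on chromosome 19 in the order Ifit2, Ifit3, Ifit3b and Ifit1. Ifit1 had 24.4, 48.5, 65.3, 29.7 and 77.2 CPM in Rg1 plus LPS libraries 1 to 5, against 99.5, 189, 217, 88.6 and 115 CPM in LPS libraries and 87.8, 57.3, 55.5, 63.6 and 39.9 CPM in control libraries. The LPS libraries were above all others, by a narrow margin over control replicate 1. The log2 fold change of Ifit1 was -1.53 ± 0.33 in Rg1 plus LPS against LPS, whereas it was 1.22 ± 0.33 in LPS against control, and the second call was lost when LPS replicates 2 and 3 were both left out. Ifit2 had 34.6 to 39.9 CPM (median 36.7) in Rg1 plus LPS cells, 48.4 to 71.2 CPM (median 52.4) in LPS cells and 36.9 to 44.8 CPM (median 40.5) in control cells. It was the steadiest member among Rg1 plus LPS libraries, with a coefficient of variation of 5.60%. Ifit2 changed by -0.64 ± 0.097 in Rg1 plus LPS against LPS as well as by 0.50 ± 0.097 in LPS against control on the log2 scale. Ifit3 and Ifit3b passed no test, with 124 ± 40.9 and 36.2 ± 11.3 CPM in Rg1 plus LPS cells, 181 ± 62.7 and 47.5 ± 16.5 CPM in LPS cells and 159 ± 24.0 and 39.5 ± 7.01 CPM in control cells. Of the 50-base stretches of Ifit3 transcripts, 51.2% also occur in Ifit3b, so the division of reads between these genes is uncertain.

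Of the OAS family, whose members make or resemble enzymes that make an RNase-activating oligoadenylate, only Oasl1 passed a test. Oasl1, which in mice restrains translation of Irf7, had 1.04, 0.67, 1.09, 1.25 and 0.572 CPM in Rg1 plus LPS libraries 1 to 5, against 2.98, 5.64, 6.3, 3.36 and 1.93 CPM in LPS libraries and 1.73, 0.623, 0.401, 0.966 and 0.589 CPM in control libraries. LPS libraries were above all others at a low level, and LPS replicate 5 was close to control replicate 1. Its log2 fold change was -2.13 ± 0.39 in Rg1 plus LPS against LPS, whereas it was 2.22 ± 0.39 in LPS against control. Its neighbour Oasl2 had values of -0.76 ± 0.32 and 0.72 ± 0.32 in the same comparisons with adjusted p of 0.0647 and 0.114 (edgeR). Oas2 had -0.93 ± 0.53 and 0.77 ± 0.53, and Oas1a had -0.57 ± 0.32 and 0.42 ± 0.32, and neither passed. Oas1a shares 57.6% of its 50-base stretches with Oas1g, so its counts are uncertain.

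Genes of the ISG15 system, a ubiquitin-like modifier and its enzymes, stayed under the threshold in LPS against control. Isg15, the modifier itself, had 16.8, 51, 56.7, 29.8 and 94.4 CPM in Rg1 plus LPS libraries 1 to 5, against 60.1, 95.5, 132, 51.6 and 86.6 CPM in LPS libraries and 63.5, 54.1, 54.3, 54.4 and 33.1 CPM in control libraries. The groups overlapped widely, since Rg1 plus LPS replicate 5 stood above 3 LPS libraries. The log2 fold change of Isg15 was -0.77 ± 0.36 in Rg1 plus LPS against LPS (adjusted p = 0.0960, edgeR) and 0.71 ± 0.36 in LPS against control (adjusted p = 0.171, edgeR). Without Rg1 plus LPS replicate 5 it was -1.12 in Rg1 plus LPS against LPS and passed. Usp18, the protease that removes ISG15 and restrains the interferon receptor, had 10.9, 21.1, 25.1, 15.1 and 42.5 CPM in Rg1 plus LPS libraries 1 to 5, against 24.8, 42.8, 49.6, 21.7 and 38 CPM in LPS libraries and 34.7, 27.1, 25.4, 27 and 16.5 CPM in control libraries. Again Rg1 plus LPS replicate 5 was high, and all groups overlapped. Its values were -0.62 ± 0.32 and 0.44 ± 0.32 on the log2 scale in the same comparisons and did not pass, and without Rg1 plus LPS replicate 5 the first was -0.95 and passed. Herc6, the mouse ISG15 ligase, fell by 0.41 ± 0.11 on the log2 scale in Rg1 plus LPS against LPS as well as by 0.37 ± 0.11 in Rg1 plus LPS against control, with 23.8% of its 50-base stretches shared with an overlapping gene model.

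The remaining members act in signalling, at membranes or in ways less well known. Stat2, the subunit that carries the activation domain of the interferon-activated complex, had 32, 47.7, 52.8, 31.1 and 60.9 CPM in Rg1 plus LPS libraries 1 to 5, against 48.3, 61.2, 66.2, 41.9 and 58.2 CPM in LPS libraries and 46, 46.4, 37.7, 39.5 and 29.3 CPM in control libraries. Its groups overlapped, and its log2 fold changes of -0.30 ± 0.19 in Rg1 plus LPS against LPS as well as 0.47 ± 0.19 in LPS against control did not pass (adjusted p = 0.217 and 0.0834, edgeR). Rtp4, a chaperone of receptors that binds the RNA of some viruses, had 12, 35.1, 43.3, 18.3 and 48.7 CPM in Rg1 plus LPS libraries 1 to 5, against 57.8, 86.5, 104, 45.5 and 67.2 CPM in LPS libraries and 35.3, 27.3, 26.1, 31.4 and 18 CPM in control libraries. All LPS libraries exceeded all control libraries, while Rg1 plus LPS replicate 5 exceeded LPS replicate 4. Rtp4 had log2 fold changes of -1.20 ± 0.33 in Rg1 plus LPS against LPS as well as 1.39 ± 0.33 in LPS against control. The first call was lost when LPS replicates 2 and 3 were both left out (adjusted p = 0.0616, edgeR). Of the 50-base stretches of Rtp4, 13.6% occur in an overlapping gene model. Samd9l, a restriction factor against poxviruses, averaged 26.7 ± 8.30 CPM in Rg1 plus LPS cells, 50.9 ± 6.37 CPM in LPS cells and 28.4 ± 3.56 CPM in control cells, with log2 fold changes of -0.93 ± 0.18 in Rg1 plus LPS against LPS as well as 0.84 ± 0.18 in LPS against control. Ifi44 fell by 0.91 ± 0.20 on the log2 scale in Rg1 plus LPS against LPS, and its 0.44 ± 0.19 in LPS against control did not pass. Bst2 (tetherin, which holds virions at the cell surface), Ifitm3 (a block to viral entry), Lgals3bp, Ifi27, Ifi35 and Xaf1 passed no test, with log2 fold changes from -0.49 to 0.17 in Rg1 plus LPS against LPS as well as from -0.13 to 0.47 in LPS against control.

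Levels per length separate the members by abundance in a different order from their response. In FPKM, Ifitm3 had the highest mean in all groups, at 1010 ± 271 in Rg1 plus LPS cells, 1110 ± 226 in LPS cells and 978 ± 51.2 in control cells. Ifi27, Bst2, Lgals3bp and Isg15 came next in the same order in each group, with means from 68.2 to 225 FPKM. None of these 5 most abundant members passed a test. The genes with the largest changes were scarce in Rg1 plus LPS cells and in control cells. Rsad2 had 0.454 ± 0.0908, Oasl1 0.426 ± 0.136 and Parp14 1.61 ± 0.277 FPKM in Rg1 plus LPS cells. In LPS cells these had 8.45 ± 2.46, 1.72 ± 0.777 and 11.3 ± 2.93 FPKM, and in control cells 0.547 ± 0.361, 0.378 ± 0.230 and 1.52 ± 0.313 FPKM. By mean level Rsad2 ranked 34 of 37 in Rg1 plus LPS cells, 24 in LPS cells and 34 in control cells, and Parp14 ranked 32, 21 and 31. The SDs of Rsad2 and Oasl1 in Rg1 plus LPS cells and in control cells cover each other's means, so their order at this low level is not resolved. Summed over all 37 genes, members took 0.239% ± 0.0635 of all counts in Rg1 plus LPS cells, 0.310% ± 0.0643 in LPS cells and 0.245% ± 0.0211 in control cells.

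The members also differed between libraries of the same group. Their median coefficient of variation was 30.9% in Rg1 plus LPS cells, 24.7% in LPS cells and 16.4% in control cells, beside 13.3%, 10.8% and 7.68% over all genes that averaged 1 CPM or more. Within Rg1 plus LPS cells, replicate 1 was the lowest for 29 of 36 members and replicate 5 the highest for 27, beside 29.7% and 26.4% of all genes. In LPS cells replicate 3 was the highest for 32 members, beside 29.0% of all genes, and replicate 4 the lowest for 29, beside 24.5%. In control cells replicate 5 was the lowest for 31 members, beside 21.1% of all genes.

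Marker genes of astrocytes and of other cell types moved with some of these libraries. The summed level of 6 fibroblast and meningeal markers was 2050, 5290, 4470, 2880 and 6300 CPM in Rg1 plus LPS libraries 1 to 5, whose mean log2 CPM over the members was 3.85, 4.62, 4.79, 4.14 and 4.99. The libraries lowest in members, replicates 1 and 4, were also lowest in fibroblast markers, and replicate 5 was highest in both. These markers summed to 4550 to 6380 CPM in LPS cells and 4270 to 5710 CPM in control cells. By the same test 1 of 6 was lower in Rg1 plus LPS cells than in LPS cells, beside 23.2% of all genes. In either comparison with control cells 0 of 6 differed. There 18.8% of all genes were higher and 18.1% lower in Rg1 plus LPS cells, and 13.8% and 9.82% in LPS cells. The 14 microglia and macrophage markers summed to 46.8 to 73.1 CPM in Rg1 plus LPS cells, 62.5 to 122 CPM in LPS cells and 54.0 to 128 CPM in control cells, and none was at 0 throughout. Tmem119 and Cd68 made up most of the sums in Rg1 plus LPS cells, with Tmem119 at 58.05 of 73.1 CPM in replicate 5. Like the fibroblast sum, Tmem119 was lowest in replicate 1 of that group and highest in replicate 5. Itgam, Csf1r, Ptprc, Tyrobp, Fcer1g and Ctss were lower in every Rg1 plus LPS library than in any LPS library. The other markers overlapped between these groups. Of the 14 markers, 8 were lower in Rg1 plus LPS cells than in LPS cells, beside 23.2% of all genes. In Rg1 plus LPS cells 5 were lower than in control cells, beside 18.1%. Between LPS and control cells 0 differed, where 13.8% of all genes were higher and 9.82% were lower. LPS replicates 2 and 3, the highest in members, had the highest microglia sums of their group. In control cells replicate 4 had the highest microglia sum, 128 CPM, while replicate 1, with 57.2 CPM, was highest in members (mean log2 CPM 4.90, against 4.80 in replicate 4). LPS replicate 5 had the highest fibroblast sum, 6380 CPM, and a mean log2 CPM over the members of 5.36, below 5.69 and 5.89 in replicates 2 and 3. The 8 astrocyte markers summed to 4170 to 6560 CPM in Rg1 plus LPS cells, 4090 to 7290 CPM in LPS cells and 6260 to 8190 CPM in control cells, so the markers of the labelled cell type were present throughout. Rg1 plus LPS replicates 1 and 4 were lowest of their group in astrocyte markers too, at 4170 and 4300 CPM, with 5100 CPM in replicate 5. LPS replicates 2 and 3 were highest of theirs, at 5470 and 7290 CPM. Control replicate 1, highest of its group in members, was lowest in astrocyte markers, at 6260 CPM. Of the 8, 1 was lower and 3 were higher in Rg1 plus LPS cells than in LPS cells, beside 23.2% and 22.2% of all genes. Against control cells, 4 were lower in Rg1 plus LPS cells and 4 were lower in LPS cells, beside 18.1% and 9.82% of all genes. Among 6 endothelial markers, Pecam1 and Cldn5 had only 63 and 5 counts over all 15 libraries and were not tested. Most of the summed level was Cdh5, at 80.9 to 93.9 CPM in Rg1 plus LPS cells, where sums were 92.4 to 109 CPM. Of the 4 tested, 2 were lower in Rg1 plus LPS cells than in LPS cells and 3 than in control cells. In LPS cells 1 was higher than in control cells. Shares of all genes were 23.2%, 18.1% and 13.8% in the same order. Markers of B cells, natural killer cells and plasmacytoid dendritic cells were at or near 0, with summed levels of at most 1.08 CPM in any library once Itgax is included. The part of these cell types in the members' differences was not tested.

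**Figure D4:**
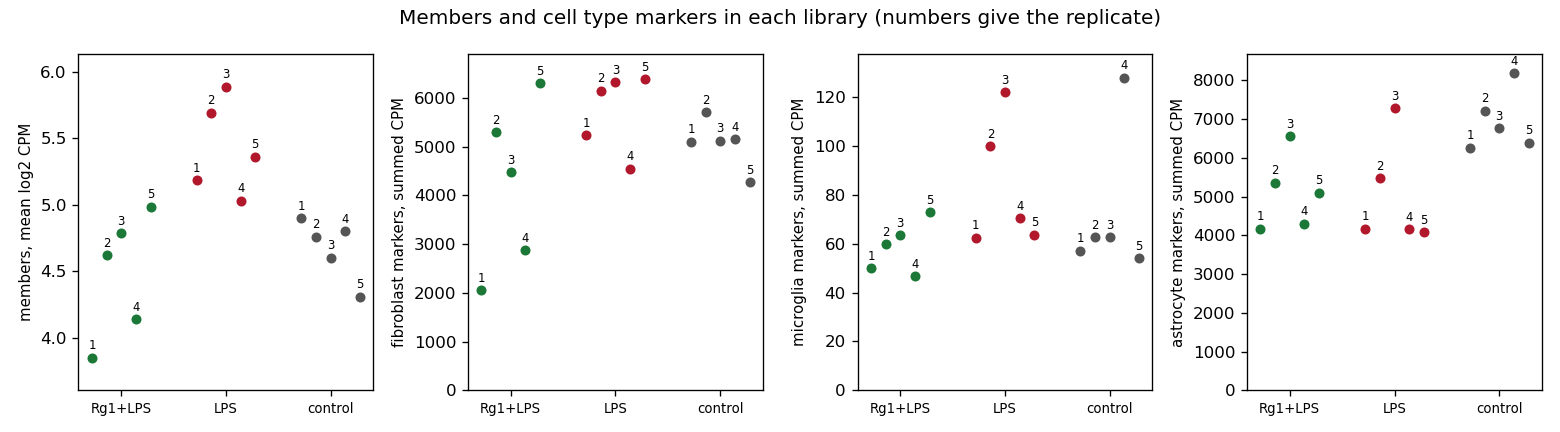
Mean log2 CPM of the 36 tested members and summed CPM of fibroblast, microglia and astrocyte markers in each library (points, numbered by replicate). Rg1 plus LPS replicates 1 and 4 are lowest of their group for members, fibroblast markers and astrocyte markers. LPS replicate 3 is highest of its group for members, microglia markers and astrocyte markers. Tmem119 makes up a large part of the microglia sums in Rg1 plus LPS libraries.

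Upstream of the members, counts of the interferon gene Ifnb1 were found mainly in cells given LPS with no Rg1. Ifnb1, which encodes interferon beta, had 0, 0, 0.0247, 0 and 0 CPM in Rg1 plus LPS libraries 1 to 5, against 1.05, 1.41, 1.75, 0.565 and 1.4 CPM in LPS libraries and 0, 0, 0, 0.0293 and 0.028 CPM in control libraries. Counts were found in every LPS library and in few others, with totals of 1 in Rg1 plus LPS cells, 224 in LPS cells and 2 in control cells. Per library size, LPS cells had 248 times the Ifnb1 counts of Rg1 plus LPS cells (95% exact interval 44.1 to 9850, counting error only) and 113 times those of control cells (30.8 to 935). Ifnab, Ifne and Ifng had at most 2 counts in any group. Ifnz, another mouse type I interferon, had totals of 68, 29 and 18 counts in Rg1 plus LPS, LPS and control cells. Unlike Ifnb1, Ifnz passed the test as higher, by at least 2-fold, in Rg1 plus LPS against control, and it passed in no other comparison.

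**Figure D5:**
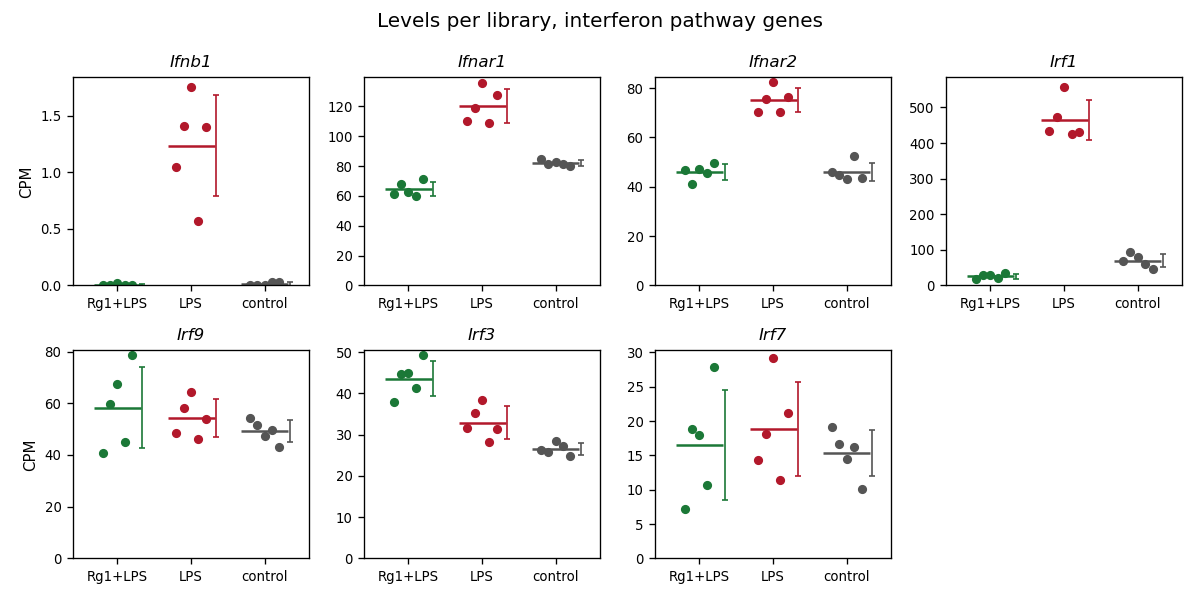
CPM of 7 interferon pathway genes in each library (points), with group mean (line) and SD (bar), on linear axes that start at 0. Ifnb1, Ifnar1, Ifnar2 and Irf1 are highest in the 5 LPS libraries, Irf3 has its highest mean in Rg1 plus LPS libraries, and the groups of Irf9 and Irf7 overlap.

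A wider list of 42 pathway symbols, 35 of them with counts and 32 tested, was set beside the members. It had 19 genes higher (59.4%) and 3 lower (9.38%) in LPS against control, beside 13.8% and 9.82% of all genes. In Rg1 plus LPS against LPS it had 3 higher (9.38%) and 17 lower (53.1%), beside 22.2% and 23.2%. In Rg1 plus LPS against control it had 5 higher (15.6%) and 8 lower (25.0%), beside 18.8% and 18.1%. Both chains of the interferon receptor were among the 19 genes. Ifnar1 had 61, 67.8, 62.7, 60.03 and 71.4 CPM in Rg1 plus LPS libraries 1 to 5, against 110.5, 119, 136, 109 and 128 CPM in LPS libraries and 85, 81.1, 83.1, 81.6 and 80.3 CPM in control libraries. The 3 groups did not overlap, with LPS libraries highest and Rg1 plus LPS libraries lowest. Ifnar1 changed by -0.90 in Rg1 plus LPS against LPS, -0.35 in Rg1 plus LPS against control and 0.55 in LPS against control on the log2 scale. Ifnar2 had -0.70, 0.004 and 0.71 in the same order, and its Rg1 plus LPS and control libraries overlapped.

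The factors behind the receptor did not move alike. Irf1, a transcription factor that also responds to interferon gamma, had 17.2, 29.8, 28.9, 19.6 and 33.9 CPM in Rg1 plus LPS libraries 1 to 5, against 433, 474, 558, 426 and 431 CPM in LPS libraries and 68.8, 92.5, 79.5, 60.1 and 45.5 CPM in control libraries. LPS libraries were far above control libraries, and Rg1 plus LPS libraries lay below both. Irf1 changed by -4.16 ± 0.22 in Rg1 plus LPS against LPS, -1.42 ± 0.20 in Rg1 plus LPS against control and 2.75 ± 0.20 in LPS against control on the log2 scale. Irf9, which binds STAT2, passed no test in any comparison, with log2 fold changes of 0.10 in Rg1 plus LPS against LPS as well as 0.14 in LPS against control. Irf7, an interferon-induced activator of interferon genes, also passed none. Irf3, which encodes a factor downstream of TRIF, was higher in Rg1 plus LPS cells than in LPS cells (0.41) and control cells (0.72), and higher in LPS cells than in control cells (0.31).

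The kinase genes Jak2 and Tyk2 were higher in LPS cells than in control cells, by 0.92 and 1.16 on the log2 scale, and had values of -1.47 and -0.70 in Rg1 plus LPS against LPS. Jak1 and Tyk2 encode the kinases of the type I receptor. Jak1, named after its values were seen, was instead lower in LPS cells than in control cells. It had 217, 200, 193, 190 and 191 CPM in Rg1 plus LPS libraries 1 to 5, against 274.5, 288, 272, 291 and 272 CPM in LPS libraries and 338, 302, 325, 310 and 359 CPM in control libraries. The 3 groups did not overlap, and the log2 fold changes of Jak1 were -0.50 ± 0.057 in Rg1 plus LPS against LPS, -0.72 ± 0.057 in Rg1 plus LPS against control and -0.23 ± 0.057 in LPS against control. Traf3 and Ikbke, which act between Toll-like receptor adaptors and IRF3, had -0.91 and -0.85 in Rg1 plus LPS against LPS as well as 0.60 and 1.36 in LPS against control. The interferon-induced GTPases of the GBP and IRG families were set beside the members for comparison. In Rg1 plus LPS cells 15 of 15 were lower than in LPS cells (median log2 fold change -2.44). The members had 20 of 36 lower there, and all genes 23.2%. In LPS cells 15 of 15 were higher than in control cells (median 2.20), where the members had 14 of 36 and all genes 13.8%.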

How the data were processed

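Per the labels' protocols, TRIzol was used for extraction and a VAHTS Universal V6 kit for the libraries. Builds GRCm38 and mm10 are named in the submitters' processing notes; how reads were aligned and counted is not given in the sources used here. The authors deposited a table of read counts and a table of FPKM, both by gene symbol, per library. The deposited FPKM equalled count over gene length and total count to a relative deviation of 7.22e-10, and 37 entries with damaged symbols per FPKM table, none of them a member, were left out. Library totals were 36196791 to 41147782 counts in Rg1 plus LPS cells, 34199966 to 41764010 in LPS cells and 34347116 to 39039780 in control cells, and no libraries held identical counts. The treatment field numbers the Rg1 libraries from Rg1 to Rg5, and they were treated as replicates, as in the sample titles and the design text.

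Counts were fitted in R 4.3.3 with edgeR 4.0.16 (filterByExpr, TMM scaling, robust quasi-likelihood, 15 libraries and 3 groups in a single fit, two-sided), and p-values were Benjamini-Hochberg adjusted over 15362 genes with a threshold of 0.05. CPM uses TMM-scaled totals and mean log2 CPM a prior count of 2. Alternatives used DESeq2 1.42.0, limma 3.58.1, other scalings, filters and omitted libraries, and the fit was tested on simulated data. Values in each library are given for members that passed a test with at least 1 CPM and a log2 fold change of at least 1 in size, and for a gene of each role. Of the pathway list, those with the smallest adjusted p and the interferon, receptor and complex genes are named, and 1 gene was left out of that list and is not reported here. The members, lists, windows and rules were chosen with earlier results of these data known. Gene positions are those of GENCODE M21 on GRCm38, in which 36 of the 37 members were found, and promoter windows are those of RefSeq.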

Additional observations from a re-analysis of the deposited data

Results flagged for a closer look

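In 129 groups of 5 libraries examined, 6 genes had a library whose gap to the nearest other exceeded Dixon's 95% critical value of 0.710, and chance gives about 1 in 20 groups. Rsad2 stood high in control replicate 1 at 4.52 CPM, where the other control libraries had 1.18 to 1.82 CPM. Control replicate 5 stood low for Oasl2 at 34.8 CPM (others 54.9 to 59.3), for Xaf1 at 17.3 CPM (others 26.9 to 29.0) and for Ifitm3 at 587 CPM (others 644 to 652). Ifnb1 had 0.0247 CPM in Rg1 plus LPS replicate 3, which is 1 count, and 0 in the other libraries of that group. Ifnar2 stood high in control replicate 4 at 52.3 CPM, where the others had 43.3 to 45.8 CPM.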

How the results depend on the processing

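Across the settings tried, no member's called change reversed. Of the 14 members higher in LPS against control, 10 kept their call in every setting. So did 15 of the 20 lower in Rg1 plus LPS against LPS and 1 of the 4 lower in Rg1 plus LPS against control. The number of members higher in LPS against control was 10 to 19 and the number lower in Rg1 plus LPS against LPS 17 to 26, the 26 without Rg1 plus LPS replicate 5. In Rg1 plus LPS against LPS, 1 member was higher, in place of 0, under scaling to library size alone, upper-quartile scaling, and limma on log2(FPKM + 1) or log2(FPKM + 0.1). In Rg1 plus LPS against control, members lower numbered 1 at adjusted p under 0.01, 1 at 1.5-fold or more, 2 with a gene length trend removed, 1 with limma on log2(FPKM + 1) without a filter, and 2 to 6 with a library left out, the 2 without control replicate 1. Without Rg1 plus LPS replicates 1 and 4, chosen after seeing the data, 2 were higher and 1 was lower. With at least 1.5-fold required, pathway genes lower in LPS against control numbered 0, higher in Rg1 plus LPS against LPS 0, and higher and lower in Rg1 plus LPS against control 2 and 4. Pathway genes higher in that last comparison numbered 8 under library-size scaling, upper-quartile scaling and log2(FPKM + 1), and 9 under log2(FPKM + 0.1). The causes were not tested. The median of all genes in Rg1 plus LPS against LPS moved to 0.16 under upper-quartile scaling, with 67.9% of called genes higher. Same-numbered libraries correlated at -0.22 to 0.16 in LPS against control, 0.050 to 0.42 in Rg1 plus LPS against LPS and -0.22 to 0.14 in Rg1 plus LPS against control, and 0, 3 and 1 of 5 correlated best with their own number. With a replicate block, 14 members were higher in LPS against control, 20 lower in Rg1 plus LPS against LPS and 4 lower in Rg1 plus LPS against control. Depth limits Oas3 and, outside LPS cells, Ifnb1, which had at most 3 counts in a group.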

Other observations

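Mavs, the adaptor through which RIG-I and MDA5 signal, was higher in Rg1 plus LPS cells than in LPS cells (log2 fold change 0.28) and control cells (0.34), while Ifih1 and Rigi were lower in both comparisons. Tlr4, the LPS receptor gene, had log2 fold changes of -0.74 in Rg1 plus LPS against control and -0.56 in LPS against control, and Cd14, its co-receptor, had -1.16 and 1.70 in the same comparisons. These genes are named for their place in the pathway and were chosen after their values were seen.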
